A study of Homo sapiens with 6 samples.

Results

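The expression of 10 genes of the regulated secretory pathway was examined in SH-SY5Y cells, namely the granins *CHGB*, *SCG2*, *SCG3*, *SCG5* and *VGF*, the neuropeptide precursors *NPY* and *GAL*, and the prohormone processing genes *PCSK1*, *PCSK1N* and *CPE*. They were chosen by symbol, and all 10 were found by identifier among the 67060 genes of the count table. *CHGA*, the best known granin, was left out because it is listed at 0 in every library. SH-SY5Y is a human neuroblastoma line, labelled as a neuronal progenitor. Both groups were infected with an adenovirus for 24 h, the controls with one that carries GFP (Ad CMV GFP) and the others with one that carries the coding sequence of mouse *Esrrg* with a 3xFlag tag (Ad CMV 3xFlag-*Esrrg*), each behind the CMV promoter. Each group had 3 libraries of total RNA without ribosomal RNA, and the comparison asks which genes respond to overexpression of the estrogen-related receptor gamma, ERRγ. The labels do not say whether the libraries came from separate cultures, so p-values measure the spread between these libraries, which may be technical. Lists of 3 values follow the order of the labels' replicate numbers, which are 1, 3 and 4 in the Ad CMV GFP group, then 2, 3 and 4 in the Ad CMV 3xFlag-*Esrrg* group.

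Granins are acidic proteins that aggregate in the trans-Golgi network and help to form dense core vesicles, the storage organelles of peptide hormones and neuropeptides. In the maturing vesicle, prohormone convertases cut precursors at pairs of basic residues, and carboxypeptidase E removes the exposed basic residues. In sympathoadrenal cells, from which neuroblastoma arises, these vesicles store granin peptides and *NPY* together with catecholamines.

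The levels of 4 of the 10 genes changed with Ad CMV 3xFlag-*Esrrg*, and they did not change in 1 direction. *GAL*, *PCSK1N* and *VGF* rose 3.12-fold, 2.28-fold and 1.82-fold, and *NPY* fell to 0.309 times its level with Ad CMV GFP. Of the other 6 genes, *CHGB*, *SCG2*, *SCG3*, *PCSK1* and *CPE* did not pass the cutoffs and *SCG5* had too few counts to be tested. A gene was called at a Benjamini-Hochberg adjusted p below 0.05 in edgeR's quasi-likelihood test over 24500 genes together with a fold change of at least 1.5. Thus 3 of the 9 tested members were called higher and 1 lower, where 17.3% of all tested genes were called higher, 16.8% lower and 34.1% in either direction. Among protein-coding genes the shares were 25.9%, 12.4% and 38.3%, so the count of called members was near the background. Scaled by library size alone, 2200 genes were called higher and 7566 lower, in place of 4234 and 4117. In 7 of the 9 genes, 5 higher and 2 lower, the ranges of the groups were apart, against 58.1% of all tested genes (27.8% higher and 30.3% lower). Among protein-coding genes, as all 9 are, the ranges were apart in 9659 of 13746 (5753 higher and 3906 lower). Nothing particular to the members is read from this count. The 9 genes had a median log2 fold change of 0.23, beside -0.10 for all tested genes and 0.12 for the protein-coding ones. This median depended on the processing. With every library corrected for the GC content and length of genes, it was 0.014 for the members and -0.0065 for all tested genes. Scaled by library size alone, the 2 medians were -0.092 and -0.42. Since 3 libraries per group allow no two-sided exact permutation p under 0.1, calls were taken from the fit over all genes.

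Levels are given as counts per 1000000 counted reads (CPM), scaled by the TMM method. Counted reads ranged from 24969759 to 40859666 a library. Reads assigned to no gene (no-feature reads) made up 51.3% to 52.2% of the entries with Ad CMV GFP and 46.6%, 31.6% and 29.5% with Ad CMV 3xFlag-*Esrrg*, so that replicate 2 stood between the groups. Human *ESRRG* had 83.6 to 90.4 CPM with Ad CMV GFP and 570, 772 and 778 CPM with Ad CMV 3xFlag-*Esrrg*, and any reads of the mouse transgene that map to it are part of its count. Of 10 neuroblast markers, 9 were tested and *TH* was listed at 0. Among the 9, 1 was called higher and 3 lower, and the ranges of the groups were apart in 8, 1 higher and 7 lower. The summed level was 896 to 956 CPM with Ad CMV GFP and 635 to 826 CPM with Ad CMV 3xFlag-*Esrrg*. All 9 markers of substrate-adherent, mesenchymal neuroblastoma cells were also present, with summed levels of 7868 to 8078 and 7994 to 8884 CPM and 2 called lower. The sum leans on *FN1*, with 1925 to 1977 and 2621 to 2764 CPM, the only 1 of the 9 whose ranges were apart and higher. In 4 the ranges were apart and lower, and the median log2 fold change of the 9 was -0.12. Schwann cell precursor markers summed to 7.40 to 8.05 and 5.05 to 5.99 CPM, with 1 of 5 tested called lower and *FOXD3* at 0. Over all tested genes 17.3% were called higher and 16.8% lower, and the ranges were apart in 58.1%. Over protein-coding genes the called shares were 25.9% and 12.4%, and the ranges were apart in 9659 of 13746. Nothing particular to these lists is read from the counts. The part of these lists in the results below was not tested, and in bulk RNA fewer cells of a type and less RNA per cell cannot be told apart.

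**Figure D1:**
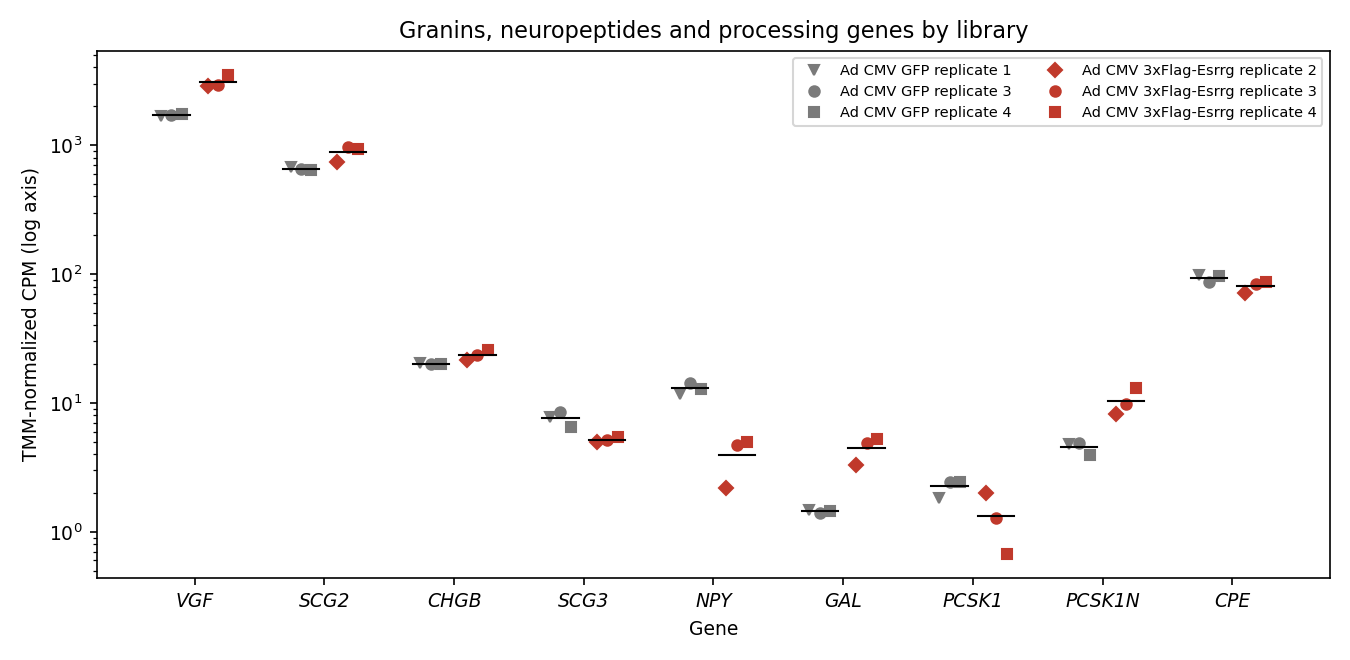
TMM-normalized CPM on a log axis for the 9 tested genes, with 1 point per library (gray, Ad CMV GFP, and red, Ad CMV 3xFlag-*Esrrg*) and a bar at each group mean. *SCG5* is left out because of its counts of 5 or fewer. The red points of *VGF*, *GAL* and *PCSK1N* lie above the gray points, those of *NPY* below them, and the points of *PCSK1* and *CPE* overlap between groups.

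*VGF*, a granin-like protein that is cut into many secreted peptides and is known for its induction by growth factors and neuronal activity, was the most abundant of the 10 genes. It had 1688, 1720 and 1734 CPM with Ad CMV GFP and 2877, 2943 and 3516 CPM with Ad CMV 3xFlag-*Esrrg*. Every library with Ad CMV 3xFlag-*Esrrg* lay above every control, and replicate 4 was the highest. The log2 fold change was 0.86 (standard error 0.13, edgeR adjusted p = 4.4e-04). *VGF* (ENSG00000128564) lies on chromosome 7 from 101162509 to 101165569 (GRCh38, minus strand), and its longest transcript has a GC content of 70.5%. A correction of every library for the GC content and length of genes gave 0.36 (adjusted p = 0.023), scaling by library size alone gave 0.54 (adjusted p = 0.0024), and neither reached 1.5-fold.

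*SCG2*, the precursor of the peptide secretoneurin, was the next most abundant. Its levels were 680, 649 and 643 CPM with Ad CMV GFP and 745, 970 and 927 CPM with Ad CMV 3xFlag-*Esrrg*. The groups did not overlap, and replicate 2 lay closest to the controls. The log2 fold change of 0.42 (standard error 0.12, edgeR adjusted p = 0.017) passed the test but not the 1.5-fold cutoff. Without Ad CMV 3xFlag-*Esrrg* replicate 2 it was 0.64 and *SCG2* was called, while it was 0.085 in a fit that took each library's share of no-feature reads as a covariate (the no-feature covariate, adjusted p = 0.66). That share separated the groups, with 51.3% to 52.2% in controls and 46.6%, 31.6% and 29.5% with Ad CMV 3xFlag-*Esrrg*. The fit therefore cannot cleanly separate the group from the share, for *SCG2* or any other gene. It leans on the spread within Ad CMV 3xFlag-*Esrrg*, where replicate 2 stood apart. Within a library, the level per length of *VGF* over that of *SCG2* does not depend on the scaling, but it does depend on the GC and length correction. With that correction the log2 fold change of *SCG2* was 0.58 (edgeR adjusted p = 0.0039), below 1.5-fold, and that of *VGF* 0.36. The larger rise was then that of *SCG2*. Without the correction the ratio of *VGF* to *SCG2* was 2.39, 2.55 and 2.59 in controls, then 3.71, 2.92 and 3.65 under Ad CMV 3xFlag-*Esrrg*, with no overlap between the groups (exact permutation test, two-sided, p = 0.1, the smallest that the design allows).

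*CHGB*, chromogranin B, had 19.9 to 20.3 CPM with Ad CMV GFP and 21.4, 23.6 and 25.7 CPM with Ad CMV 3xFlag-*Esrrg*. The ranges were separate, but the log2 fold change was 0.23 (standard error 0.10, edgeR adjusted p = 0.078), and the GC and length correction gave 0.014 and scaling by library size alone -0.092. Without Ad CMV 3xFlag-*Esrrg* replicate 2 it was 0.41 (adjusted p = 1.4e-04), still below 1.5-fold. *SCG3*, which binds chromogranins to the cholesterol-rich vesicle membrane, had 7.80, 8.50 and 6.47 CPM with Ad CMV GFP and 5.01, 5.14 and 5.40 CPM with Ad CMV 3xFlag-*Esrrg*. Each of these 3 values lay below every control. Its log2 fold change of -0.55 (standard error 0.15, edgeR adjusted p = 0.010) was below 1.5-fold, and it was called lower without Ad CMV GFP replicate 4 (-0.65, adjusted p = 0.012) and when scaled by library size alone (-0.87, adjusted p = 0.0018), as also with protein-coding genes only (-0.68) and with the no-feature covariate (-0.63). The GC and length correction gave -0.36 (adjusted p = 0.051). The granins thus had log2 fold changes on either side of 0, and only *VGF* among the 4 tested was called.

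*SCG5*, the chaperone of the convertase *PCSK2*, had 1, 1 and 3 counts with Ad CMV GFP and 1, 0 and 5 counts with Ad CMV 3xFlag-*Esrrg*. These counts are at the limit of detection in both groups, so no fold change is given. Of the 31-base words of its longest transcript, 88.5% also occur on alternate contigs of GRCh38, where a read has more than 1 place to align, and 51.4% of its exon bases are shared with the readthrough gene *ARHGAP11A-SCG5* on the same strand, which was not analysed here. The neighbouring *ARHGAP11A*, with 94.3% of its words on such contigs, had 0 to 13 counts, and *CHGA*, with 90.2%, had 0. Whether the authors aligned reads to these contigs is not given in the sources used here, and its part in the low counts was not tested. For 8 of the other 9 members no such word was found, and for *SCG3* the share was 1.63%.

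*NPY*, the precursor of neuropeptide Y, a peptide of sympathetic neurons and chromaffin cells, was the only member called lower. The gene (ENSG00000122585) lies on chromosome 7 from 24284188 to 24291862, plus strand. It had 332, 440 and 426 counts with Ad CMV GFP, or 11.8, 14.2 and 12.9 CPM. With Ad CMV 3xFlag-*Esrrg* it had 59, 158 and 170 counts, or 2.21, 4.69 and 4.99 CPM. All 3 libraries lay below all controls, and replicate 2 was the lowest. The log2 fold change was -1.69 (standard error 0.24, edgeR adjusted p = 3.0e-04), and without replicate 2 it was -1.31. With the no-feature covariate it was -2.93.

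*GAL*, the precursor of galanin, a peptide of sympathetic and sensory neurons, moved the other way at a lower level. The gene (ENSG00000069482) lies on chromosome 11 from 68683779 to 68691175, plus strand. It had 42, 43 and 48 counts with Ad CMV GFP (1.39 to 1.49 CPM) and 89, 164 and 179 counts with Ad CMV 3xFlag-*Esrrg* (3.33, 4.87 and 5.25 CPM). Here replicate 2 lay between the controls and the other libraries of its group. The log2 fold change was 1.64 (standard error 0.22, edgeR adjusted p = 2.1e-04), and 1.01 with the no-feature covariate (adjusted p = 0.0093). The level per length of *NPY* was 11.5, 14.9 and 12.9 times that of *GAL* in the Ad CMV GFP libraries and 0.965, 1.40 and 1.38 times that of *GAL* with Ad CMV 3xFlag-*Esrrg*. The ratio was thus 10.6-fold lower with Ad CMV 3xFlag-*Esrrg* (exact permutation test, two-sided, p = 0.1, the smallest that the design allows), a value that is the same under every scaling. The ratios given here were chosen after the values had been seen, and of 4 computed, that of *CPE* over *PCSK1* overlapped between the groups, with 91.5, 60.2 and 67.3 against 60.5, 112 and 220 (exact permutation test, two-sided, p = 0.3).

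*PCSK1*, the prohormone convertase that acts in the regulated pathway, had the lowest level per exon length of the tested members. It had 52, 76 and 81 counts with Ad CMV GFP and 54, 43 and 23 counts with Ad CMV 3xFlag-*Esrrg*. The levels were 1.84, 2.46 and 2.45 CPM and 2.02, 1.28 and 0.675 CPM, so that replicate 2 lay among the controls and the other libraries below them. The log2 fold change was -0.79 (standard error 0.33, edgeR adjusted p = 0.070), and the 1.73-fold difference in fitted level was not called. Without Ad CMV 3xFlag-*Esrrg* replicate 2 it was -1.10 and *PCSK1* was called lower (adjusted p = 4.7e-04). Leaving out replicate 4 of that group gave -0.46 (adjusted p = 0.20), and the no-feature covariate gave 0.20 (adjusted p = 0.76).

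*PCSK1N*, which encodes proSAAS, a granin-like inhibitor of the *PCSK1* convertase, had 135, 152 and 131 counts with Ad CMV GFP and 218, 328 and 449 counts with Ad CMV 3xFlag-*Esrrg*. In CPM these were 4.79, 4.91 and 3.96 against 8.15, 9.74 and 13.2. All libraries with Ad CMV 3xFlag-*Esrrg* lay above all controls, with replicate 4 the highest. The log2 fold change was 1.19 (standard error 0.19, edgeR adjusted p = 5.6e-04). *PCSK1N* (ENSG00000102109) lies on chromosome X from 48831096 to 48835610, minus strand. Its longest transcript has a GC content of 74.2%, the highest among the members, and the GC and length correction left a log2 fold change of 0.72, still called. The no-feature covariate gave 0.65. The level per length of *PCSK1N* over that of *PCSK1* was 6.48 to 10.4 with Ad CMV GFP and 16.2, 30.5 and 78.2 with Ad CMV 3xFlag-*Esrrg* (exact permutation test, two-sided, p = 0.1, the smallest that the design allows). The spread of this ratio within Ad CMV 3xFlag-*Esrrg* was wide, 41.6 ± 32.4 (SD, n = 3), and it rests on as few as 23 counts of *PCSK1*.

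*CPE*, carboxypeptidase E, had 98.3, 86.1 and 95.9 CPM with Ad CMV GFP and 71.1, 83.5 and 86.6 CPM with Ad CMV 3xFlag-*Esrrg*. The groups overlapped, with a log2 fold change of -0.22 (standard error 0.11, edgeR adjusted p = 0.11). This value depended on the processing. It was -0.028 without Ad CMV 3xFlag-*Esrrg* replicate 2, -0.36 with protein-coding genes only (adjusted p = 0.0067), -0.47 with the no-feature covariate (adjusted p = 0.0021) and -0.54 when scaled by library size alone (adjusted p = 8.4e-04), all below 1.5-fold.

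Divided by the length of all annotated exons, the levels can be compared between genes (reads per kilobase per 1000000 counted reads, RPKM). With Ad CMV GFP the order was *VGF* at 640 ± 8.67 RPKM (SD, n = 3), *SCG2* at 255 ± 7.87, *CPE* at 30.0 ± 2.06, *NPY* at 14.5 ± 1.37, *CHGB* at 4.51 ± 0.0471, *PCSK1N* at 3.40 ± 0.389, *SCG3* at 2.39 ± 0.327, *GAL* at 1.11 ± 0.0385, *PCSK1* at 0.420 ± 0.0655 and *SCG5* at 0.0240 ± 0.0149. No neighbours in this order overlapped in their ranges. With Ad CMV 3xFlag-*Esrrg*, *VGF* (1161 ± 131 RPKM), *SCG2* (342 ± 46.3) and *CPE* (25.8 ± 2.62) kept the first 3 places. By this length *PCSK1N* (7.74 ± 1.92) came next, in place of *NPY*. *CHGB* (5.30 ± 0.477) and *NPY* (4.44 ± 1.71) overlapped in their ranges, as did *NPY* and *GAL* (3.45 ± 0.784), so their order is not resolved. *SCG3* followed at 1.63 ± 0.0623 RPKM and *PCSK1* at 0.247 ± 0.126. *VGF* and *SCG2* together held most of the summed CPM of the 10 genes, *VGF* 67.1% to 68.8% with Ad CMV GFP and 72.7% to 77.0% with Ad CMV 3xFlag-*Esrrg*.

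**Figure D2:**
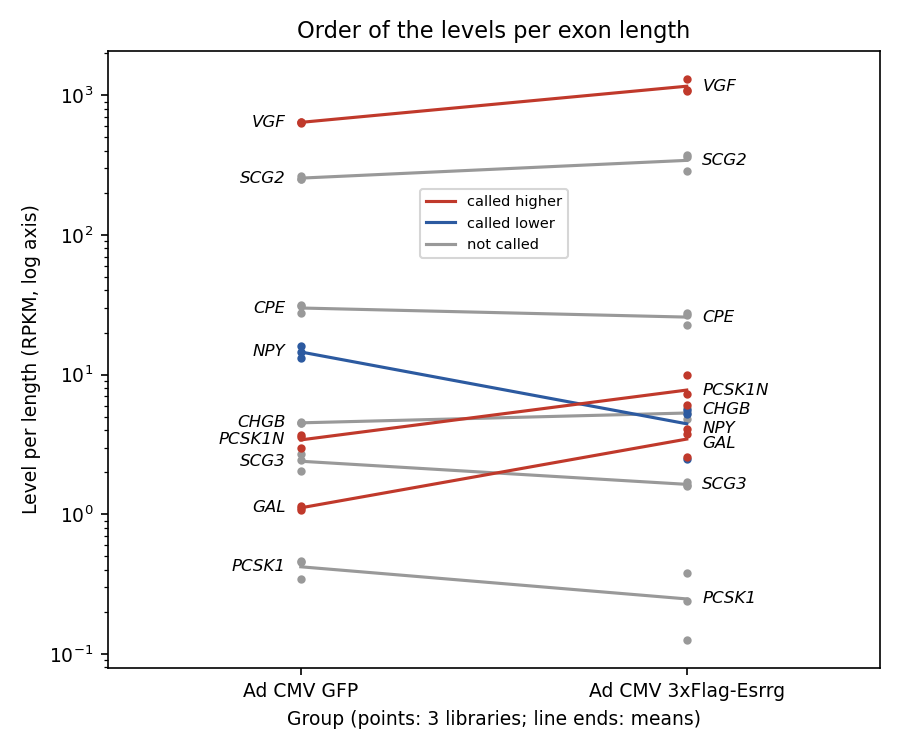
Level per exon length (RPKM, log axis) of 9 genes in both groups. Points are single libraries, lines join the group means, and colours give the call. The line of *NPY* falls across those of *PCSK1N* and *CHGB*, and the line of *GAL* rises across that of *SCG3*.

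RefSeq promoter windows (GRCh38.p14, 250 bases before to 50 after a start) were at hand for 7 of the 10 genes, not for *CHGB*, *SCG2* and *GAL*. The ERR core motif AAGGTCA was found on neither strand in any of the 7, against 3.92% of all 35116 windows, and its part AGGTCA likewise in none against 13.8%. The palindrome TGACGTCA, the cAMP response element, was found in the windows of *VGF*, 79 bases before the start, and of *PCSK1*, 77 bases before the start, against 1.85% of all windows. The shorter TGACG, which overlaps it, was in 5 of the 7 (24.6% of all windows), CAGCTG in 2 (17.9%) and TATAAA in 2 (11.5%). *PCSK1* has a second window, which holds its TATAAA and CAGCTG matches but no TGACGTCA. A match describes letters and does not show binding, and the data hold no measurement of binding. The windows of *VGF* and *PCSK1* are printed because they share the TGACGTCA element (in capitals), and that of *NPY* because *NPY* was the only member called lower. The windows of *NPY* and of *PCSK1N*, which rose, hold none of the motifs searched.
VGF, chr7:101165520-101165819, minus strand: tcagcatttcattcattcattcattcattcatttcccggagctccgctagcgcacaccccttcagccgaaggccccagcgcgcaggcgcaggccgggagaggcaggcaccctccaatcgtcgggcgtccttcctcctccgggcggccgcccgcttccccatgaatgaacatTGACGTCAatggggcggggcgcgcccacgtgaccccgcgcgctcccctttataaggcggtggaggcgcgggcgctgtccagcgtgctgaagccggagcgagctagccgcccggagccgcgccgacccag
PCSK1, chr5:96433199-96433498, minus strand: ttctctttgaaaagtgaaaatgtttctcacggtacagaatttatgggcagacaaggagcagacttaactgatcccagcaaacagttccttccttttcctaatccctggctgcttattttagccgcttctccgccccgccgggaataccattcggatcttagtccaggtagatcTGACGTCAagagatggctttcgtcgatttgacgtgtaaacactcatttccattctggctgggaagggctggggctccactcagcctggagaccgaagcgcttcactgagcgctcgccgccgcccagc
NPY, chr7:24283940-24284239, plus strand: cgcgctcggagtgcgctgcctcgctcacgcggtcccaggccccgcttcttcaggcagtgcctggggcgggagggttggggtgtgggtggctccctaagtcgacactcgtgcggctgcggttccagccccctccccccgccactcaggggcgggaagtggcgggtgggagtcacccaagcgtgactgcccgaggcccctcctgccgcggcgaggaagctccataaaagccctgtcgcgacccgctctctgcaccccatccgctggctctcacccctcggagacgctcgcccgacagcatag

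The rest of the dense core vesicle pathway was described by 61 further genes in 4 lists, of which 36 were tested. Of these, 11 were called higher and 9 lower, and their median log2 fold change was 0.12. These counts stand beside 17.3% higher and 16.8% lower over all tested genes, and 25.9% and 12.4% over protein-coding genes, and nothing particular to the lists is read from them. Scaling by library size alone gave 6 higher and 12 lower, where 2200 and 7566 of all genes were called, and the no-feature covariate 4 and 10, where 1773 and 1323 of all genes were called. Among 21 other neuropeptide precursors, 7 were tested, 3 rose and 2 fell. *NMB*, the precursor of neuromedin B, had 6.67 to 7.40 CPM with Ad CMV GFP and 13.8 to 19.8 CPM with Ad CMV 3xFlag-*Esrrg* (log2 fold change 1.32, standard error 0.15, edgeR adjusted p = 1.0e-04). *NTS*, the precursor of neurotensin, and *NPW*, that of neuropeptide W, had log2 fold changes of 0.79 and 0.82 (edgeR adjusted p = 0.014 and 0.032). *NTS* had 1.84 CPM in each control and 2.24, 3.83 and 3.40 CPM with Ad CMV 3xFlag-*Esrrg*. *NPW*, at a mean of 50.2 counts, had 1.07 to 1.21 CPM and 1.23, 2.47 and 2.32 CPM, so that replicate 2 lay next to the controls. *NMU* (neuromedin U) and *CALCB* (a calcitonin gene-related peptide) fell by 2.55 and 1.49 on the log2 scale at mean counts of 18.2 and 36.3, and *UCN* and *VIP* had log2 fold changes of -0.32 and -0.46 that did not pass.

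Among 12 other processing enzymes, 9 were tested, 3 rose and 1 fell. *FURIN*, the convertase of the constitutive pathway, had 44.3 to 49.7 CPM with Ad CMV GFP and 72.8 to 90.6 CPM with Ad CMV 3xFlag-*Esrrg* (log2 fold change 0.80, standard error 0.11, edgeR adjusted p = 2.1e-04). *CTSL*, a cathepsin that also cuts proneuropeptides, rose by 1.00 and *QPCTL*, a Golgi enzyme that cyclizes N-terminal glutamine, by 1.07 on the log2 scale. *CPM*, a carboxypeptidase of the cell surface, fell by 0.96. *PAM*, which amidates the C-terminus of *NPY* and many other peptides, was abundant at 446 to 500 CPM over all 6 libraries, with a log2 fold change of 0.11 (standard error 0.097, edgeR adjusted p = 0.35). *PCSK2*, the partner of *SCG5*, had 0 to 2 counts per library and was not tested.

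Among 21 genes of vesicle formation and release, 19 were tested, 5 rose and 5 fell. The synaptotagmin genes *SYT4* and *SYT9* fell. *SYT4* had 251 to 274 CPM with Ad CMV GFP and 76.2 to 82.6 CPM with Ad CMV 3xFlag-*Esrrg* (log2 fold change -1.70, standard error 0.095, edgeR adjusted p = 1.8e-06), and *SYT9* had 22.7 to 24.6 CPM and 4.08 to 4.55 CPM (log2 fold change -2.45, standard error 0.11). *RAB27B*, a GTPase of vesicle docking, fell from 51.8 to 62.0 CPM to 16.6 to 25.4 CPM (log2 fold change -1.51). *CADPS*, the priming factor CAPS, rose from 33.9 to 35.0 CPM to 72.4 to 83.0 CPM (log2 fold change 1.16, standard error 0.093, edgeR adjusted p = 1.6e-05). The vesicle membrane proteins *PTPRN* and *PTPRN2* had log2 fold changes of 0.47 and 0.15 and were not called.

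Among 7 receptors of NPY and galanin, *NPY2R* was the only one with enough counts to be tested. It had 99, 81 and 82 counts with Ad CMV GFP and 10, 17 and 13 counts with Ad CMV 3xFlag-*Esrrg*, a log2 fold change of -2.75 (standard error 0.26, edgeR adjusted p = 4.3e-05), so that the RNA of *NPY* and that of this receptor fell. *NPY1R*, *NPY4R*, *NPY5R*, *GALR1*, *GALR2* and *GALR3* had from 0 to 9 counts per library. Among the regulators examined, *CREB1*, the factor that binds the cAMP response element, fell by 0.59 on the log2 scale, or 1.51-fold, close to the cutoff. *REST*, the repressor of neuronal genes, and its partner *RCOR1* had log2 fold changes of -0.32 and -0.35, past the test but below 1.5-fold. *INSM1* had 0 or 1 counts.

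**Figure D3:**
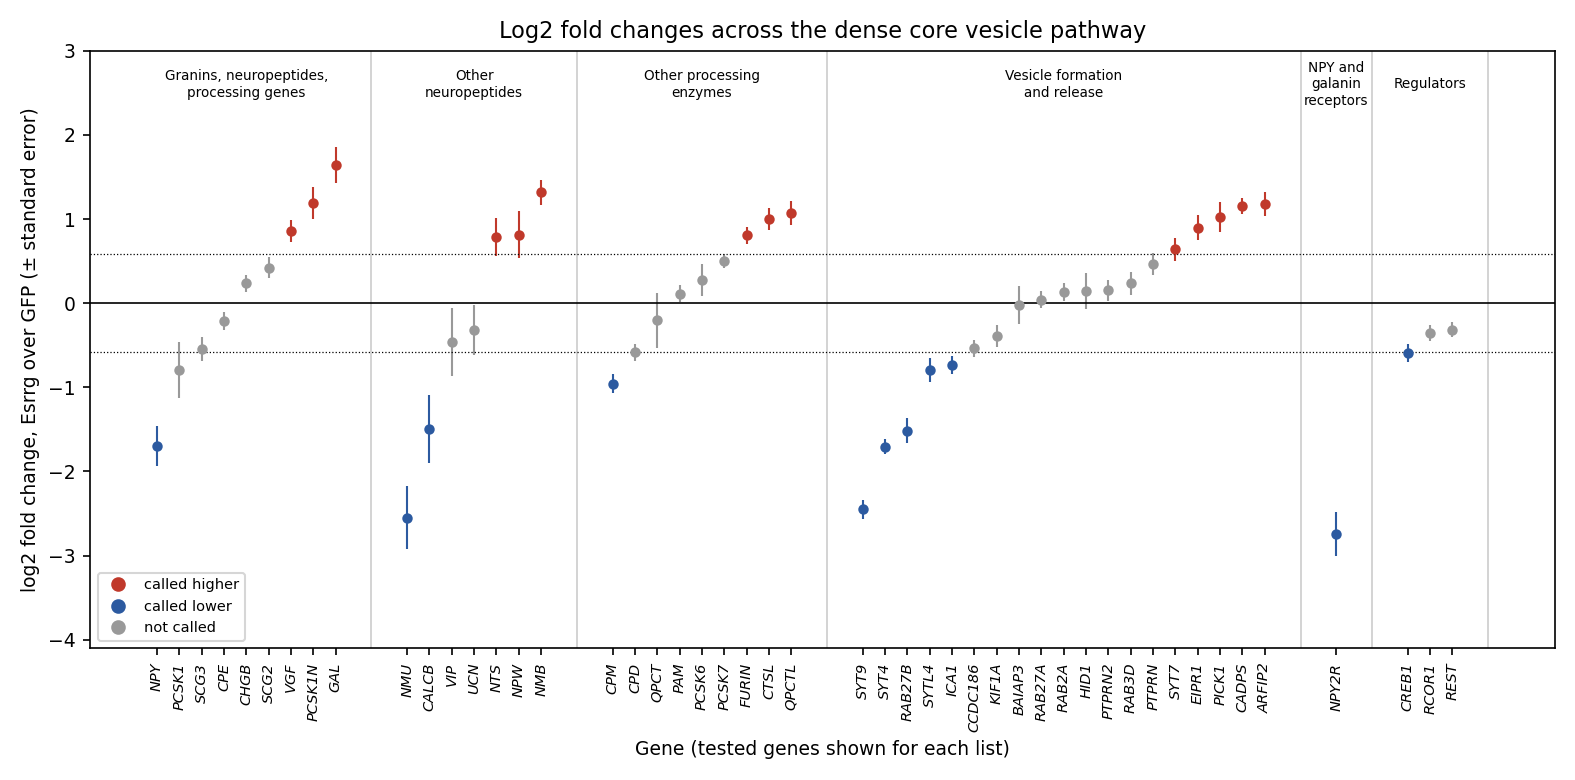
Log2 fold changes (Ad CMV 3xFlag-*Esrrg* over Ad CMV GFP) with standard errors from edgeR for tested genes of each list, with 3 regulators shown. Red points were called higher, blue points lower and gray points were not called, and dotted lines mark 1.5-fold. The granins and processing genes, the other neuropeptides, the other processing enzymes and the vesicle genes each hold genes called in both directions.

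The calls of *NPY*, *GAL* and *PCSK1N* held in each of 19 other ways of processing, with log2 fold changes from -2.93 to -1.31, from 1.01 to 1.92 and from 0.65 to 1.44. That of *VGF* was lost in 5 of them, where its value ran down to 0.27. Among the 19, those that only change the fold cutoff reuse the same fit, and no call can be lost by dropping the cutoff.

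**Figure D4:**
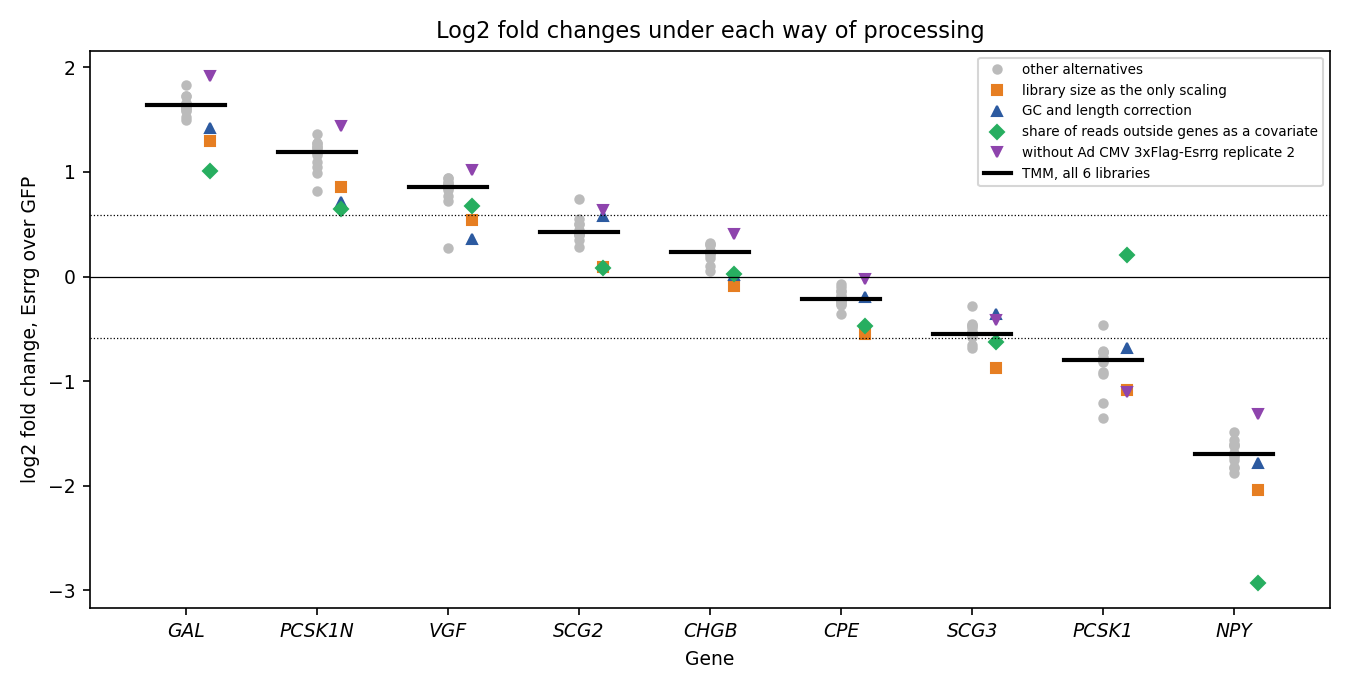
Log2 fold changes of the 9 tested genes under TMM scaling with all 6 libraries (black bars) and under the alternatives (points), with dotted lines at 1.5-fold. The points of *GAL* and *PCSK1N* stay above the upper line and those of *NPY* below the lower one, while those of *VGF*, *SCG2*, *SCG3* and *PCSK1* lie on both sides of a line.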

How the data were processed

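The 6 RNA libraries of SH-SY5Y cells were grouped and numbered by their labels, 3 per group. The authors deposited raw counts per gene. The submitters' processing notes name Trim Galore 0.6.7, STAR 2.7.9a, HTSeq 0.11.3 and DESeq2 with GRCh38, while the annotation release and strand setting are not given in the sources used here. Of 67060 identifiers, 60419 matched GENCODE release 44, whose coordinates, exon lengths and symbols were used. The 5 summary entries of HTSeq were kept out of the library sizes. Counts were fitted in R 4.3.3 with edgeR 4.0.16 (filterByExpr, TMM, quasi-likelihood test, Benjamini-Hochberg over all tested genes). Each standard error was taken as the size of the log2 fold change divided by the root of the F statistic. DESeq2 1.42.0 and mgcv 1.9.3 served alternatives, and Python 3.11.15 the ratios, words and motifs. The fits were checked on simulated data.

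The 10 genes and all lists were chosen with earlier results of these data known. All 10 are reported. Of the other lists, preset partners and the 3 called genes with the largest change among those with a mean of at least 50 counts are named, and *NMU*, *CALCB*, *UCN* and *VIP* were added after their values were seen. Precision is limited by 3 libraries per group, and a limit at few counts covers counting error only. The result of 1 regulator is not reported here.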

Additional observations from a re-analysis of the deposited data

Results flagged for a closer look

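The ambiguous reads, which HTSeq could not assign to a single gene and which enter no comparison, were flagged because their share was higher in every Ad CMV 3xFlag-*Esrrg* library than in any control. The shares were 5.69%, 9.84% and 9.79% with Ad CMV 3xFlag-*Esrrg* replicates 2, 3 and 4, a median of 9.79%, and 4.55% to 4.87% with Ad CMV GFP, so that replicate 2 lay close to the controls. Exons of other genes cover 51.9% of the exon bases of *SCG5* and none of those of the other 9 members.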

How the results depend on the processing

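Of 19 alternatives for each gene, *NPY*, *GAL* and *PCSK1N* kept their call in all, though no call can be lost in the one without a fold cutoff. The cause of the changes below was not tested. The share of no-feature reads separated the groups, so the fit with it as a covariate cannot cleanly separate the group from that share. Against 3 members called higher and 1 lower, 3 were lower with library size as the only scaling and with protein-coding genes only, and 2 without a filter on low counts, without a fold cutoff, under the replicate block, under that block plus GC and length correction, and under the no-feature covariate (each library's share of reads on no gene). Against 11 pathway genes called higher there were 6 with library size only, 5 at a 2-fold cutoff, 6 in a test against a 1.5-fold threshold, 7 under GC and length correction and 4 under the covariate. Over all genes, 2200 were higher and 7566 lower with library size only, 1952 and 1982 at the 2-fold cutoff, 2207 and 1387 in the threshold test, 2814 and 2468 with protein-coding genes only and 1773 and 1323 with the covariate. *CHGB* was -0.092 with library size only (adjusted p = 0.39), where the median of all genes was -0.42 in place of -0.10, and *PCSK1* was 0.20 with the covariate (adjusted p = 0.76). Leaving out 1 library gave 3 to 4 members higher and 1 to 2 lower, 8 to 13 pathway genes higher and 9 to 10 lower, and 3710 to 5820 genes higher and 2895 to 5141 lower, where 5820 and 5141 were reached without Ad CMV 3xFlag-*Esrrg* replicate 2. Replicate numbers 3 and 4 occur in both groups, and the deviations of the same-numbered libraries from their group means had correlations of 0.075 and -0.0001. Ad CMV GFP replicate 3 had 0.10 with Ad CMV 3xFlag-*Esrrg* replicate 4. Replicate 2 of the latter group stood apart and weighs on these deviations, so they cannot decide whether the numbers are pairs. The numbers were not taken as pairs. With the replicate block *PCSK1* was -1.35 and called lower, and 4742 genes were higher and 5693 lower. Replicate number 1 occurs only with Ad CMV GFP and number 2 only with Ad CMV 3xFlag-*Esrrg*. The group effect in the block fits, with or without GC and length correction, therefore rests on replicates 3 and 4 alone. Ad CMV 3xFlag-*Esrrg* replicate 2 adds nothing to it. Counts limit *PCSK1*, with 23 to 81 per library, and *SCG5*, with at most 5.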
